A study of Mus musculus with 24 samples.

Results

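Messenger RNA levels were compared between eIF4E3 knockout (KO) and control (ctrl) mouse Neuro-2a (N2a) neuroblastoma cells while both were treated with the mTOR inhibitor Torin1. The comparison was made from the 3 ctrl and the 3 KO RNA-seq libraries with Torin1, which are 6 of the 24 libraries of the series. Of 12529 transcripts listed with a count in these libraries, 11007 had a CPM (counts per 1000000 counts of the library) over 1 in all 3 libraries of ctrl or of KO cells and were tested, and 1522 were not. The series also holds ribosome footprints (Ribo-seq) with Torin1, and both assays with vehicle. These were used here to ask whether the mRNAs that differed with Torin1 also differed without the drug, and whether they differed in footprints.

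N2a is an established, aneuploid line of neural crest type. The ctrl cells, labelled WT, had been transfected with an empty Cas9-puromycin vector, and the KO cells with 3 vectors that carried guide RNAs to exons 1, 2 and 4 of Eif4e3. Both underwent 2 rounds of transfection with puromycin selection of 10 days. Each genotype is therefore a single selected population, so the loss of eIF4E3 and the history of a population cannot be told apart. Torin1 was given at 250 nM for 2 h in DMSO, and vehicle was DMSO alone. The 3 replicates of a group are separate passages, per the labels, and p-values therefore measure only the spread between passages of these populations.

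Translation of most mRNAs starts when the eIF4F complex binds the 5′ cap. In this complex eIF4E1 (gene Eif4e) holds the cap, eIF4G is the scaffold and eIF4A unwinds RNA. mTOR keeps the 4E-BP proteins phosphorylated, and when Torin1 blocks mTOR the unphosphorylated 4E-BPs take up eIF4E1. eIF4E3 is a family member that binds the cap but not the 4E-BPs, and the study asked what it does when eIF4E1 is held away. mRNA levels are one side of that question, since a change in footprints can come from more mRNA or from more ribosomes on each mRNA.

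The N2a label was checked against marker genes. Of 12 sympathoadrenal neuroblastoma markers 11 were listed and their summed level was 2410 to 2580 CPM in ctrl and 2540 to 2790 in KO libraries. Of the other cell types, 4 of 10 fibroblast markers were listed (3.51 to 4.24 CPM in sum in ctrl, 3.59 to 4.37 in KO libraries), as were 2 of 8 glial (14.2 to 17.6 and 14.4 to 15.1), 3 of 8 haematopoietic (1.84 to 4.39 and 2.93 to 4.19) and 1 of 8 epithelial markers (Krt8, 2.17 to 2.50 and 0.647 to 1.64). None of these was called, and their part in the results was not tested. In bulk RNA, fewer cells of a type and less RNA per cell cannot be told apart. RNA-seq libraries held 17048750 to 28912912 counts with Torin1 and 17952318 to 25993734 with vehicle, and Ribo-seq libraries 1289467 to 2132682 footprints.

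The targeted mRNA was lower in KO cells. Eif4e3 (chr6:99625135-99666771, minus strand, mm10) was at 14.3, 17.5 and 12.7 CPM in the ctrl libraries and at 5.10, 4.57 and 4.77 CPM in the KO libraries. All 3 KO libraries lay far below every ctrl library, at 32.5% of the ctrl mean. The log2 fold change was -1.63 (SE 0.14, adjusted p = 1.01e-04 by edgeR). The decrease was also present with vehicle (log2 fold change -2.05, adjusted p = 0.0312) and in footprints with Torin1 (log2 fold change -1.93, adjusted p = 6.17e-04). Its translational efficiency (TE, footprints relative to mRNA) had a log2 difference of -0.30 with an adjusted p of 0.768. Counts over the coding sequence (CDS) still hold reads from mRNAs with small insertions or deletions, so the level does not give the share of intact alleles. By Western blot, the study reported no detectable eIF4E3 protein in the KO cells.

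The other cap-binding members were at much higher levels than eIF4E3 in both genotypes. Per kilobase of CDS, Eif4e was at 167 ± 12.5 CPM (SD, n = 3) in ctrl and 174 ± 5.89 in KO cells, and Eif4e2, which encodes the weak cap binder 4EHP, at 152 ± 3.70 and 147 ± 10.0. On the same scale Eif4e3 was at 23.7 ± 3.92 and 7.71 ± 0.43. Neither Eif4e (log2 fold change 0.05, adjusted p = 0.693) nor Eif4e2 (-0.05, 0.692) passed the test. Of 17 tested mRNAs for the eIF4E family, 4E-BPs and eIF4F subunits, Eif4e3 was the one that passed, and their median log2 fold change was 0.00 (-0.0006).

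Gm20696, an overlapping gene model, moved with Eif4e3. Its log2 fold change was -1.62 (SE 0.25, adjusted p = 0.00721). Its coding sequence consists of 3 blocks of 24, 73 and 125 bases that lie within coding blocks of Eif4e3, and 88.3% of its 30-base words are shared with it, so its counts cannot be told apart from those of Eif4e3. Of the 10 tested neighbours of Eif4e3 on chromosome 6 it was the single one called. The others, among them Foxp1, Mitf and Rybp, had log2 fold changes between -0.16 and 0.42.

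Across the transcriptome 216 mRNAs differed between KO and ctrl cells with Torin1, 111 higher and 105 lower in KO, which is 1.96% of those tested (1.01% higher, 0.954% lower; edgeR's quasi-likelihood test, Benjamini-Hochberg adjusted p under 0.05). An unadjusted p under 0.05 was reached by 1954 (17.8%). Without scaling of the libraries beyond their totals the split was 128 higher and 72 lower. Most differences were small. The median size of the log2 fold change among the called was 0.36, with a range from 0.18 to 3.03. It exceeded 1 for 25 mRNAs and 0.5 for 64. In all 216 the CPM of the 3 KO and the 3 ctrl libraries did not overlap, which was the case for 22.5% of all mRNAs tested. For a single mRNA an exact permutation test of 3 against 3 cannot go below p = 0.1, so the calls rest on the fit across all mRNAs.

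The number of calls depended on single libraries. It was 6 without ctrl replicate 3, the library with the fewest counts, 102 without ctrl replicate 1, 174 without ctrl replicate 2, and 116, 63 and 43 without KO replicate 1, 2 and 3. Eif4e3, Rcn3 and Msn were among the mRNAs called in each of these fits.

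The largest decrease by fold was that of Aldh4a1, the mitochondrial enzyme that completes the breakdown of proline to glutamate. Aldh4a1 (chr4:139622866-139649690) was at 2.34, 3.35 and 1.84 CPM in ctrl and 1.03, 0.341 and 0.963 CPM in KO libraries. All KO values lay below the ctrl values, KO replicate 2 lowest, and the log2 fold change was -1.73 (SE 0.35, adjusted p = 0.0226). Rcn3, a calcium-binding protein gene of the secretory pathway that was singled out after its values were seen, fell less but with little spread. It went from 48.5, 52.8 and 52.3 CPM in ctrl to 35.5, 35.6 and 34.5 CPM in KO libraries, a log2 fold change of -0.54 (SE 0.07, adjusted p = 0.00255).

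The other large decreases were found for mRNAs of low level and unrelated function. Itpr3, an inositol trisphosphate receptor that releases calcium from the endoplasmic reticulum (ER), fell by 1.57 on the log2 scale, and Vamp8, a SNARE of endosomal membranes, fell by 1.32. Tmem82 fell by 1.33, Mfap5 of the extracellular microfibrils fell by 1.19 and Srcin1 fell by 1.06. The slow skeletal troponin I gene Tnni1 fell by 1.00 and the calcium-gated potassium channel gene Kcnn1 fell by 0.96. C1ra, a protease of the complement system, fell by 1.00, but it shares 71.6% of its 30-base words with C1rb, so the reads of this pair could be split between them. Of the 12 largest decreases 5 lie on chromosome 6, which holds 493 of the 11007 mRNAs tested. Among these 5 are Eif4e3 itself and Gm20696, whose counts cannot be told apart from those of Eif4e3.

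Lrrc4c had the largest increase. It encodes netrin-G ligand 1, an adhesion protein of synapses. Lrrc4c was at 0.209, 0.134 and 0.0594 CPM in ctrl, which is 5, 3 and 1 counts, and at 1.03, 1.23 and 1.36 CPM in KO libraries, which is 27, 36 and 31 counts. The groups were far apart, but the fitted log2 fold change of 3.03 (SE 0.43, adjusted p = 0.00552) rests on few counts in ctrl cells. With vehicle its log2 fold change was 2.26, with an adjusted p of 0.123.

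The other largest increases included several genes of the X chromosome. Magea8, of a family silent in most tissues outside the testis and reactivated in tumours, was at 1.04, 1.25 and 0.535 CPM in ctrl and 3.24, 3.45 and 4.68 CPM in KO libraries. The groups did not overlap, and the log2 fold change was 1.95 (SE 0.27, adjusted p = 0.00552). With vehicle Magea8 was called as well, at 1.78 (adjusted p = 0.0312). It shares 61.1% of its 30-base words with Magea5, so these counts could be split. Also on X, 3830417A13Rik had a log2 fold change of 2.40 in mRNA, while its footprints went the other way (-1.80, adjusted p = 0.172) and its TE was lower by 4.26 on the log2 scale (adjusted p = 0.0143). Its ctrl mRNA values rest on 3, 3 and 10 counts. Its footprints were few in both groups, with 0.472, 0.0 and 1.84 CPM in the KO libraries. The TE difference of this mRNA therefore rests on few counts in both assays.

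Further increases on X were Pcyt1b, an enzyme of phosphatidylcholine synthesis, with a log2 fold change of 1.12, Nxt2, a factor of mRNA export, with 1.12, the ubiquitin ligase gene Pja1 with 1.11, and Mospd1 with 1.05. Thus 6 of the 12 largest increases lie on X, which holds 355 of the 11007 mRNAs tested. Off X were the transcription factor gene Irf8 (1.38), the integrin β3 gene Itgb3 (1.35), the histone methyltransferase family gene Prdm8 (1.25), the anthrax toxin receptor gene Antxr2 (1.08) and Gm3005 (1.54). Antxr2 (chr5:97882783-98030962) and Prdm8 (chr5:98167198-98187454) lie close together. Gm3005 belongs to a family of near-identical copies and shares all of its 30-base words with Gm2956, so its value is uncertain. Of the 45 mRNAs that the choice of genes picked and the test called, 2 stayed called without each library in turn, Eif4e3 among them.

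**Figure D1:**
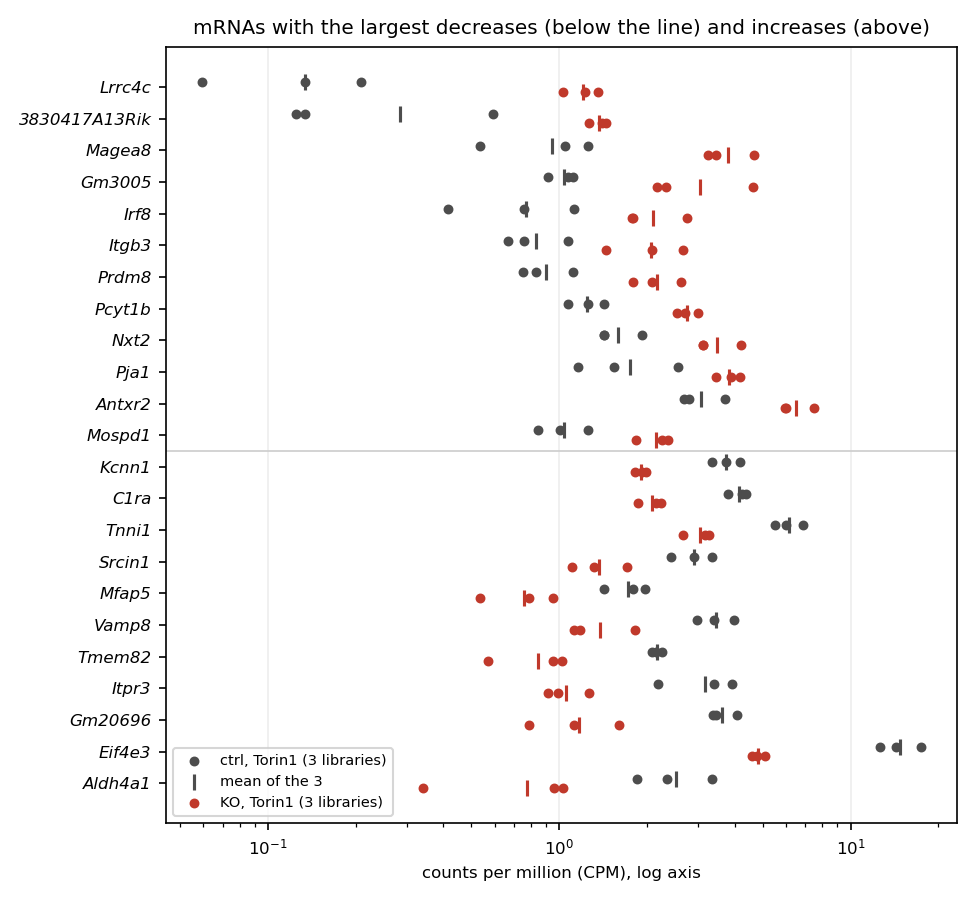
Level of 11 mRNAs among the largest decreases (below the line) and of the 12 with the largest increases (above it), in CPM on a log axis. Each point is a library with Torin1 (3 ctrl in grey, 3 KO in red) and each bar the mean of 3. The ctrl and KO points do not overlap for any of the 23, which the choice of the mRNAs required, and of these Eif4e3 has the highest ctrl level.

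The genes higher in KO cells were concentrated at a few places in the genome. Chromosomes X and 13 hold 756 of the mRNAs tested (6.87%) and 63 of the 111 higher calls (56.8%), against 3 of the lower calls. On X, 33 of 355 mRNAs were higher (9.30%, against 1.01% over all chromosomes) and 1 was lower. The median log2 fold change over the X was 0.14, and 78.3% of its mRNAs were above 0, beside a median of 0.01 (0.0056) over all mRNAs tested.

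On X the called mRNAs were of varied function. Msn, which encodes moesin, a linker of actin to the plasma membrane (chrX:96096042-96168552), was at 101, 91.4 and 104 CPM in ctrl and 137, 129 and 139 CPM in KO libraries. No KO library reached down to a ctrl library, and the log2 fold change was 0.45 (SE 0.06, adjusted p = 0.0049). Hprt, an enzyme of purine salvage, was at 94.1, 95.1 and 96.7 CPM in ctrl and 120, 115 and 120 CPM in KO libraries, a log2 fold change of 0.31 (SE 0.05, adjusted p = 0.00985; 0.067 with the GC and length trend described below removed). Tmsb4x, for the actin monomer-binding thymosin β4, had a larger log2 fold change of 1.00 (SE 0.16, adjusted p = 0.00783), and its footprints were higher by 1.34 (adjusted p = 2.13e-06). These 3 and the mRNAs of chromosome 13 below were singled out after their values were seen.

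The shift was uneven along X. In windows of 10 Mb, the median log2 fold change was 0.34 over 13 mRNAs at 40 to 50 Mb, 0.39 over 18 at 50 to 60 Mb and 0.44 over 14 at 90 to 100 Mb. It was 0.06 over 26 mRNAs in the first 10 Mb and 0.03 over 55 at 70 to 80 Mb.

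On chromosome 13 the shift was found mainly in the distal part. A boundary at 60 Mb was set after the values were seen. Past it, 29 of 212 mRNAs were higher (13.7%) and 1 was lower, the median log2 fold change was 0.19 and 89.6% of values were above 0. Before it, 1 of 189 was higher and 1 lower, with a median of -0.02. The first 10 Mb, which hold this higher call, had a median of 0.10 over 16 mRNAs (0.19 with vehicle). The other windows before 60 Mb had medians between -0.09 and 0.00. Every 10 Mb window past 60 Mb had a positive median, between 0.13 and 0.31.

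The distal part of chromosome 13 holds genes of signalling, adhesion and respiration. Rasa1, a GTPase-activating protein of Ras (chr13:85214780-85289029), was at 92.4, 99.8 and 91.8 CPM in ctrl and 119, 127 and 131 CPM in KO libraries. The groups were apart, with a log2 fold change of 0.41 (SE 0.06, adjusted p = 0.00552). Pik3r1, the p85α regulatory subunit of PI3-kinase, was at 28.0, 25.3 and 29.0 CPM in ctrl and 39.7, 34.8 and 39.2 CPM in KO libraries. All KO values exceeded the ctrl values, and the log2 fold change was 0.47 (SE 0.08, adjusted p = 0.0124). Itga1, the α1 integrin chain of collagen receptors, had a log2 fold change of 0.48 (SE 0.07, adjusted p = 0.00721), and Erbin, a scaffold of the receptor ERBB2, had 0.31 (SE 0.05, adjusted p = 0.00786), or 0.20 with an adjusted p of 0.0616 after removal of the same trend.

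The regional shifts were seen in each library. As the median over mRNAs of the log2 CPM minus the mean of the mRNA over the 6 libraries, X was at -0.05, -0.04 and -0.08 in ctrl and at 0.05, 0.08 and 0.07 in KO libraries. For distal chromosome 13 the ctrl libraries were at -0.05, -0.10 and -0.12 and the KO libraries at 0.08, 0.11 and 0.10. Chromosome 16 had a smaller and broader shift, with 84% of its 331 mRNAs above 0, a median log2 fold change of 0.10, 5 higher calls and none lower. Its ctrl libraries were at -0.02, -0.07 and -0.06 and its KO libraries at 0.06, 0.05 and 0.05.

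Of 20 chromosomes compared, 4 (13, 16, 18 and X) had all KO medians above all ctrl medians and 6 had them below. With the GC and length trend removed, the median of chromosome 18 went from 0.04 to 0.01 (0.0082) and that of chromosome 16 from 0.10 to 0.08. Chromosome 6 was among the 6 with KO medians below. Its median was -0.03, and of its 493 mRNAs 14 were lower (2.84%, against 0.954% over all) and 2 higher (0.406%, against 1.01%). An exact two-sided permutation test gave p = 0.1 for each of these 10, the smallest it can give. DNA copy number was not measured here.

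**Figure D2:**
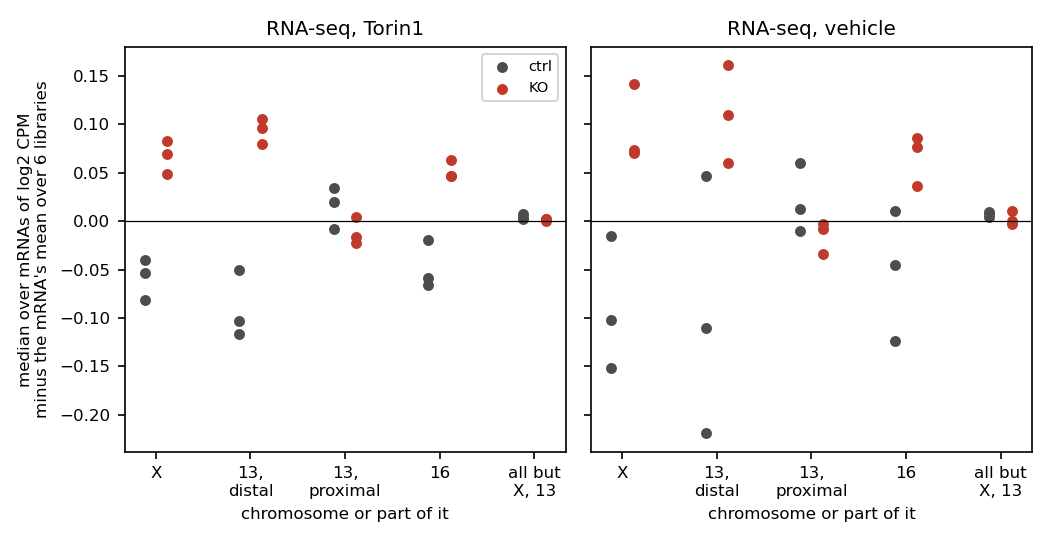
Median over the mRNAs of a chromosome (or of its part past or before 60 Mb, here distal and proximal) of the log2 CPM minus the mean of the mRNA over 6 libraries, on the y axis, with a point for each library (ctrl grey, KO red), for Torin1 (left) and vehicle (right). With Torin1 all KO points lie above all ctrl points for X, distal 13 and 16, and overlap for proximal 13.

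The regions were followed without the drug and in footprints. With vehicle, the median log2 fold change was 0.20 on X, 0.21 on distal chromosome 13 (89.6% of values above 0), 0.15 on chromosome 16 and 0.12 on chromosome 18. In footprints with Torin1 it was 0.17 on X, where 33 of 372 transcripts were higher (8.87%, against 2.02% of all transcripts with footprints tested), and 0.11 on distal chromosome 13. Calls in footprints were not concentrated there, with 6 of 217 higher on distal (2.76%) and 12 of 223 on proximal chromosome 13 (5.38%). On chromosome 16 the median of footprints was 0.05, the KO and ctrl libraries overlapped, and 1.52% were higher. These libraries are separate, but all come from the same 2 cell populations.

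**Figure D3:**
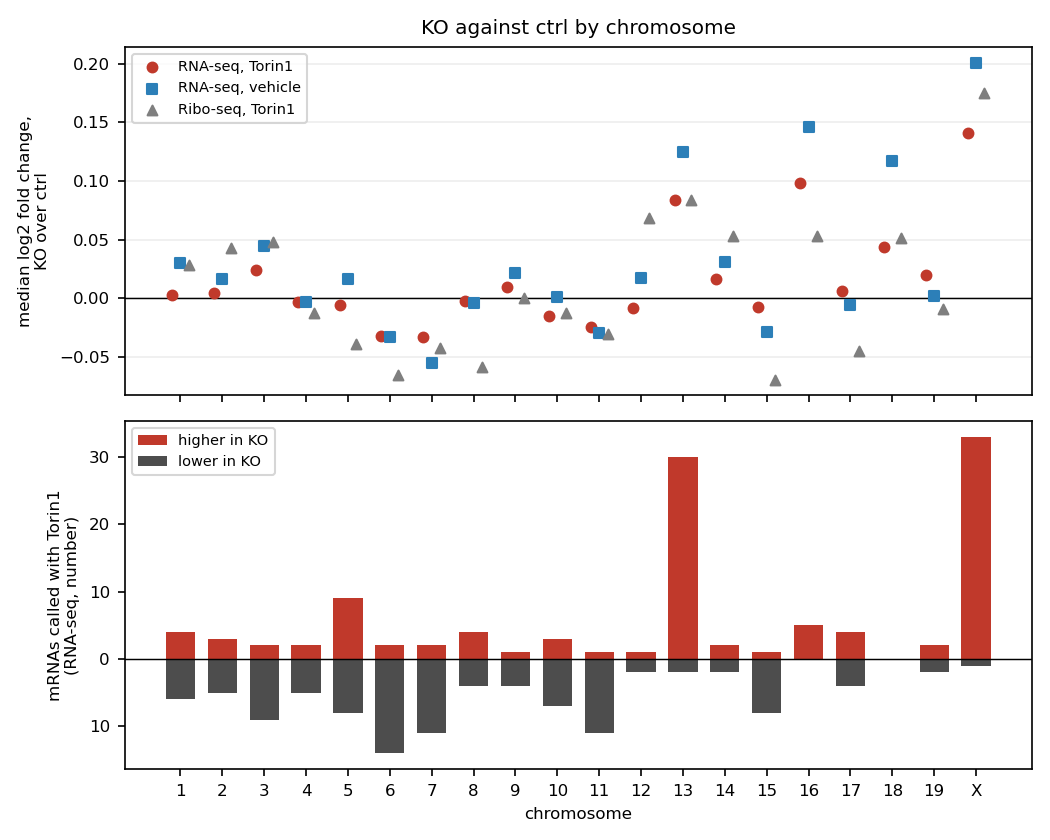
Top, median log2 fold change of KO over ctrl per chromosome for RNA-seq with Torin1 (circles), RNA-seq with vehicle (squares) and Ribo-seq with Torin1 (triangles). Bottom, number of mRNAs called higher (up) and lower (down) in RNA-seq with Torin1. Chromosomes X and 13 have 33 and 30 higher calls, and the next in number, chromosome 5, has 9.

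Base composition moved with the comparison as well. Across 10963 mRNAs the log2 fold change and the GC content of the CDS had a Spearman correlation of -0.28, given as a description since genes are not independent replicates. Among the 1097 mRNAs with the lowest GC content, 27 were higher and 1 lower, with a median of 0.08. Among the 1097 with the highest, 3 were higher and 12 lower, with a median of -0.03. The called mRNAs that were higher had a median GC content of 49.0% and those lower 56.7%.

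With the trend of each library with GC content and CDS length removed, 261 mRNAs were called, 115 higher and 146 lower, and 178 of the 216 calls were kept. The medians were then 0.11 on X, 0.14 on distal and -0.05 on proximal chromosome 13, whose median GC contents were 46.6% for the distal and 52.4% for the proximal part. The part of base composition in single calls was not tested further.

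The mRNAs that differed with Torin1 were next followed without the drug. With vehicle, 2 of 10924 mRNAs were called (0.0183%), Eif4e3 and Magea8, and 646 (5.91%) had an unadjusted p under 0.05. This count depended on the fit. With the replicate number as a block, an alternative given below, 866 were called with vehicle and 1041 with Torin1. Of the 216 mRNAs called with Torin1, 214 were tested with vehicle, and 211 had the same sign. Over all 10858 mRNAs tested in both, 8154 had the same sign. An unadjusted p under 0.05 was reached by 126 of the 214, all of the same sign as with Torin1. Over all 10858 it was reached by 626, of which 594 had the same sign. The median log2 fold change with vehicle was 0.42 for the mRNAs higher with Torin1 and -0.38 for those lower.

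Over the 214 the Pearson correlation of the log2 fold changes was 0.93, and over all 10858 it was 0.63. Within a direction it was 0.79 among the called mRNAs that were higher and 0.86 among those lower. The points of these correlations share the cell populations and base composition, but no library.

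Whether the genotype difference itself changed with the drug was asked by the interaction of genotype and treatment over the 12 RNA-seq libraries. It was called for 0 of 11073 mRNAs (0.0%) by edgeR's quasi-likelihood test, and for 0 in each alternative fit. With these 12 libraries in 1 fit the genotype difference with Torin1 itself was called for 6 mRNAs, beside 216 from its own 6 libraries. The interaction could therefore miss differences of this size, and 0 calls do not show that the genotype difference was equal with and without the drug. An unadjusted p under 0.05 was reached by 108 mRNAs (0.975%), 6 of them among the 216. For Eif4e3 the interaction was 0.42 (SE 0.29) on the log2 scale. The ctrl vehicle library of replicate 2 stood apart from the others (Pearson correlation of levels 0.966 to 0.985 with the KO vehicle libraries, against 0.988 to 0.991 for the other ctrl vehicle libraries), and without it 10 mRNAs were called with vehicle. Without ctrl replicate 1, ctrl replicate 3 or KO replicate 1 none was, and without KO replicate 3 it was 1.

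Footprints followed the mRNAs in part. Of 10792 transcripts with footprints tested 651 were called (6.03%), 218 higher (2.02%) and 433 lower (4.01%). Without ctrl replicate 1, KO replicate 1 and KO replicate 2 the calls were 417, 424 and 343. Of the 216 mRNAs, 204 had a footprint value, 168 had the same sign in footprints and 41 were called there, 40 with the same sign. Of all 10509 mRNAs with a value in both, 6413 had the same sign and 636 were called in footprints, 496 with the same sign. The median log2 fold change of footprints was 0.23 for called mRNAs that were higher and -0.35 for called mRNAs that were lower. The Pearson correlation over the 204 was 0.55, and 0.26 over all 10509 with a value in both. Within a direction it was 0.08 among the called mRNAs that were higher and 0.24 among those lower. The Spearman correlation with GC content was -0.42 over 10755 transcripts in footprints, beside -0.28 in mRNA. Among the 1076 transcripts of lowest GC content 85 were higher and 2 lower in footprints. Among the 1076 of highest GC content 9 were higher and 90 lower. This trend was not removed from any footprint or TE value given here, and its part in them was not tested. TE was called for 17 of the 204 (299 of 10509 over all, 2.85%), 5 of them among the mRNAs that were higher and 12 among those that were lower. TE uses the same RNA-seq libraries as the mRNA values, so the pair of values is not independent.

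**Figure D4:**
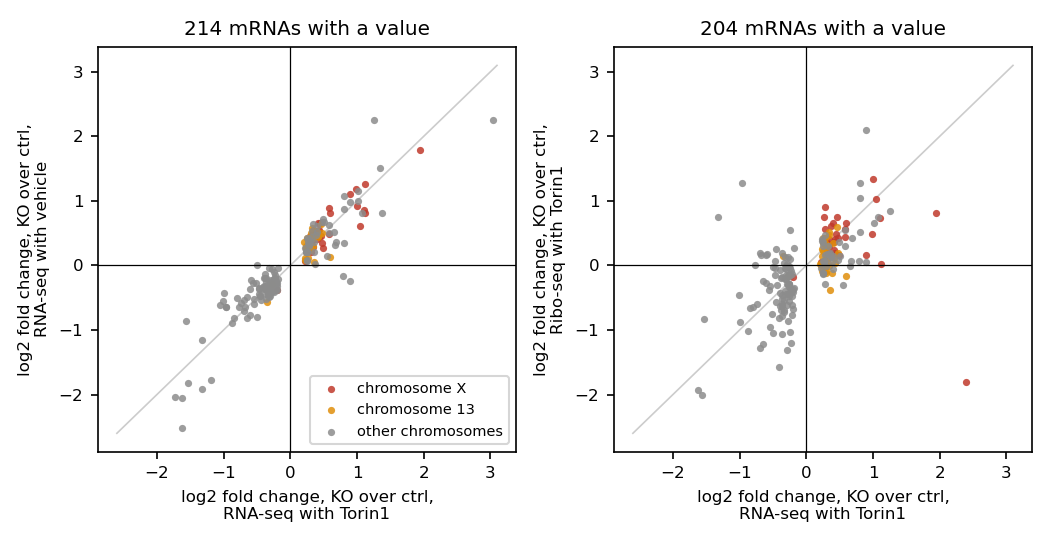
Log2 fold change of KO over ctrl for the mRNAs called with Torin1 (x axis, RNA-seq) against RNA-seq with vehicle (left, 214 mRNAs) and Ribo-seq with Torin1 (right, 204). Each point is an mRNA, red for chromosome X, yellow for chromosome 13 and grey for other chromosomes, and the diagonal is equality. On the left 211 of 214 points have the same sign on both axes, and on the right 168 of 204. Over all mRNAs with both values, the same sign was found for 8154 of 10858 (vehicle) and 6413 of 10509 (footprints).

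Catecholamine genes hold an example in which mRNA and footprints both fell. Dbh, which converts dopamine to noradrenaline, was at 47.3, 37.9 and 44.0 CPM in ctrl and 29.2, 32.0 and 36.2 CPM in KO libraries. The highest KO value was just below the lowest ctrl value, and the log2 fold change was -0.41 (SE 0.09, adjusted p = 0.0422). Its footprints went from 53.5, 72.5 and 71.2 to 16.1, 30.3 and 20.8 CPM, a log2 fold change of -1.57 (SE 0.20, adjusted p = 4.61e-07), and its TE fell by 1.16 (SE 0.23, adjusted p = 0.00463). Aldh2, a mitochondrial aldehyde dehydrogenase, fell by 0.50 in mRNA (adjusted p = 0.0294) and by 1.04 in footprints (adjusted p = 0.041). Of 13 tested catecholamine mRNAs these were the 2 called, both lower, and the median was -0.01. Th, the rate-limiting enzyme of the pathway, had a log2 fold change of -0.22 (SE 0.18, adjusted p = 0.572).

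Genes of sympathoadrenal identity were mostly without a call. Of 27 tested, 1 was higher and 1 lower, and the median was 0.05. The higher one was the transcription factor gene Gata2 (0.24, SE 0.05, adjusted p = 0.0349).

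In respiration, 76 mRNAs of oxidative phosphorylation had a median log2 fold change of -0.05, with 2 higher and 3 lower. The complex I subunit genes Ndufb8 (-0.27, adjusted p = 0.0258) and Ndufa9 (-0.20, adjusted p = 0.0482) and the complex III gene Uqcrc1 (-0.21, adjusted p = 0.0358; 0.0522 with the GC and length trend removed) were lower. Their footprints had log2 fold changes of -0.86, -0.68 and -0.61, all called, and TE was lower for Ndufb8 (adjusted p = 0.0111) and Ndufa9 (0.0101), with 0.0588 for Uqcrc1. The higher ones, Cox7c of complex IV and Ndufs4 of complex I, both lie on distal chromosome 13. Cox7c was at 103, 91.4 and 95.6 CPM in ctrl and 131, 118 and 121 CPM in KO libraries. Its mRNA was thus higher in each KO library (log2 fold change 0.35, SE 0.06, adjusted p = 0.0124), while its footprints were lower (-0.38, SE 0.11, adjusted p = 0.0361) and its TE was lower by 0.71 (SE 0.14, adjusted p = 0.00519). With vehicle the Cox7c mRNA had a log2 fold change of 0.05 (unadjusted p = 0.761).

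Of 32 tested enzymes of mitochondrial amino acid oxidation, Aldh4a1 and Bcat2, which transaminates branched-chain amino acids, were lower (Bcat2 -0.38, adjusted p = 0.0226), with none higher and a median of -0.06. Glycolysis and the TCA cycle had a median of -0.08 over 43 mRNAs and 0 calls by edgeR, with 17 at an unadjusted p under 0.05 and 2 calls by DESeq2. Eno1, nearest to it, had -0.22 with an adjusted p of 0.0558 and shares 87.3% of its 30-base words with Eno1b. Of 33 SREBP targets of sterol and fatty acid synthesis, 3 were lower, all of the sterol branch, and none was higher. They were Fdps (-0.26, adjusted p = 0.0166), Pmvk (-0.26, adjusted p = 0.0464, or 0.082 with the GC and length trend removed) and Dhcr7 (-0.24, adjusted p = 0.0283). The list median was -0.07. Fdps (chr3:89093588-89101959) and Pmvk (chr3:89454541-89469009) lie close together.

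mRNAs for the translation machinery and for mTOR signalling had few calls. Of 93 TOP mRNAs, whose translation depends most on mTOR, 0 were called by edgeR (14 at an unadjusted p under 0.05, 13 of them lower) and 0 by DESeq2. Their smallest adjusted p was that of Eif3h (-0.14, adjusted p = 0.124). Their median was -0.04, beside -0.24 with vehicle (0.01 over all mRNAs) and -0.19 in footprints (0.00 over all). With vehicle the log2 fold change also rose with CDS length (Spearman correlation 0.39 over 10883 mRNAs). It had a median of -0.12 over the 1090 mRNAs with the shortest CDS and 0.19 over the 1088 with the longest. The part of CDS length and base composition in the vehicle and footprint medians was not tested. Of 32 mTOR, insulin and FoxO mRNAs Pik3r1 was the one called, with a list median of 0.10. Rictor, a core subunit of mTORC2, had 0.28 with an adjusted p of 0.0703.

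Of 39 ATF4 targets, Cbs of cysteine synthesis (-0.44, adjusted p = 0.0482) and the methionyl-tRNA synthetase gene Mars1 (-0.18, adjusted p = 0.0492) were lower, and the median was -0.01. Of 35 immediate early mRNAs the phosphatase gene Dusp2 was lower (-0.38, adjusted p = 0.0127), and the median was 0.12. The heat shock list had 2 of 26 lower, the co-chaperone gene Bag3 (-0.23, adjusted p = 0.0315) and Hspa4 (-0.19, adjusted p = 0.0464), with a median of -0.04.

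Matrix, integrin and synaptic adhesion lists held 6 higher calls. Of 28 matrix and integrin mRNAs 4 were higher and none lower, with a median of 0.09. They were Fn1 for fibronectin (0.27, adjusted p = 0.0222), Lama4 for a laminin chain (0.25, adjusted p = 0.0226; 0.0623 with the GC and length trend removed), Itga1 and Itgb3. Fn1 was at 209, 230 and 234 CPM in ctrl and 263, 272 and 277 CPM in KO libraries, so that no libraries overlapped, while its footprints had a log2 fold change of 0.06 (adjusted p = 0.858). Of 28 axon guidance and synaptic adhesion mRNAs 2 were higher, Lrrc4c and the cell adhesion gene Nrcam (0.90, adjusted p = 0.0349), with a median of 0.09.

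The MAGE family had the highest list median, 0.43 over 9 tested mRNAs with Torin1 and 0.43 with vehicle. Its 4 higher calls, Magea8, Mageh1 (0.43, adjusted p = 0.0492), Maged2 (0.31, adjusted p = 0.0241) and Maged1 (0.28, adjusted p = 0.0166), all lie on X. Maged1, which encodes a widely expressed adaptor protein, was at 790, 818 and 815 CPM in ctrl and 912, 1035 and 989 CPM in KO libraries. Its groups did not overlap, and its footprints were higher by 0.56 (adjusted p = 2.58e-04).

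Of 44 lysosome and autophagy mRNAs, Lamp2 on X was higher (0.37, adjusted p = 0.0213). Its adjusted p was 0.0524 with the GC and length trend removed. The cathepsin gene Ctsl (-0.28, adjusted p = 0.0289) and Gusb, for β-glucuronidase (-0.24, adjusted p = 0.032), were lower. For Gusb footprints fell by 1.04 (adjusted p = 3.32e-07) and TE by 0.78 (adjusted p = 4.98e-04).

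No mRNA was called by edgeR in 8 further lists. These were the eIF4E3 partners named by the study (8 tested, median 0.02), ER chaperones (30, median 0.00), MHC class I and peptide loading (23, median -0.09), cell cycle and spindle (46, median 0.00), p53 targets (23, median 0.02), interferon-stimulated genes (19, median -0.04), hypoxia-inducible factor targets (19, median 0.02) and replication-dependent histones (4, median 0.03). An unadjusted p under 0.05 was reached by 1, 5, 4, 10, 2, 3, 6 and 0 of their mRNAs in this order, and DESeq2 called 1 in the cell cycle and 1 in the p53 list. Among the partners, Xiap, an inhibitor of caspases on X, had the largest value with 0.36 (SE 0.11, adjusted p = 0.125), and the scaffold genes Eif4g1 and Eif4g3 had 0.05 and 0.01.

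**Figure D5:**
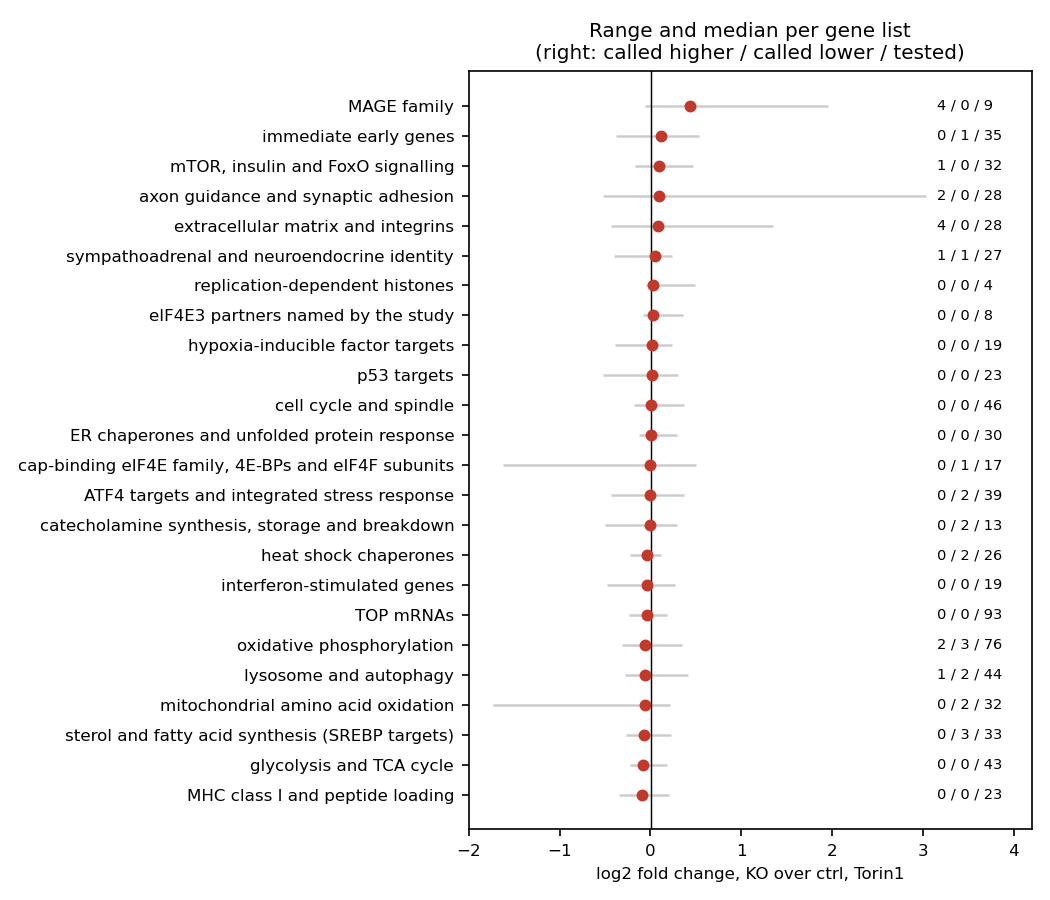
Log2 fold change of KO over ctrl with Torin1 for 24 gene lists, with the median (point) and the range over tested members (line). The numbers at the right are members called higher, called lower and tested. Every median but that of the MAGE family (0.43) lies between -0.09 and 0.12.

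A gene family with near-identical copies gave calls in both directions. Dynlt1a, Dynlt1b, Dynlt1c and Dynlt1f encode the dynein light chain Tctex-1 and lie side by side on chromosome 17. They were singled out after their values were seen. Their coding sequences are 342 bases long, those of Dynlt1a, Dynlt1c and Dynlt1f are identical, and Dynlt1b differs by the substitution C21A (base of the Dynlt1a CDS, position from its start, base of Dynlt1b). Within the CDS no read can tell Dynlt1a, Dynlt1c and Dynlt1f apart. A read within the CDS separates Dynlt1b from them only if it crosses the base in capitals. Bases 6 to 35 of the CDS, which span an intron, are shown (GENCODE M21 transcripts, GRCm38, written along the coding strand):
Dynlt1a: agacttccaggcctcCgaggagactgcatt
Dynlt1b: agacttccaggcctcAgaggagactgcatt

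Dynlt1a was at 16.4, 15.4 and 14.8 CPM in ctrl and 33.5, 21.5 and 31.8 CPM in KO libraries (log2 fold change 0.89, SE 0.14, adjusted p = 0.00771), and Dynlt1f was likewise higher (0.78, adjusted p = 0.0108). Dynlt1b was at 66.8, 64.9 and 85.4 CPM in ctrl and 54.0, 52.4 and 46.6 CPM in KO libraries (-0.50, SE 0.09, adjusted p = 0.0179), and Dynlt1c had -0.15 (adjusted p = 0.655). The sum of the 4 was 170, 163 and 156 CPM in ctrl and 175, 153 and 161 CPM in KO libraries, and these overlapped. The authors kept primary alignments, 1 placement per read, so reads that match several copies could fall to any of them and the calls within this family are uncertain.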

How the data were processed

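RNA-seq (polyadenylated RNA, stranded kit) and Ribo-seq were done on Neuro-2a cells, 3 libraries per group. Reads (for Ribo-seq after adaptor trimming with cutadapt) were mapped by the authors to mm10 (HISAT2, primary alignments kept) and to the canonical transcripts of Ensembl (Bowtie2), and the deposited values are raw counts per CDS. No molecular identifiers are described. Columns of the authors' fold changes and p-values were not used. At 17048750 to 28912912 counts per RNA-seq library with Torin1, differences of mRNAs near 1 CPM rest on few counts.

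Each comparison was fitted alone with edgeR 4.0.16 (R 4.3.3; TMM scaling, quasi-likelihood test), after the filter of CPM over 1 in all 3 libraries of a group, with Benjamini-Hochberg adjustment over all transcripts tested and a call at an adjusted p under 0.05. TE was tested as the interaction of assay and genotype, and the drug dependence of the genotype difference as the interaction of genotype and treatment. limma 3.58.1 (voom) and DESeq2 1.42.0 served as alternatives, with other scalings and filters and each library left out. The scripts were tested on simulated data. Positions, GC content and CDS lengths came from GENCODE M21, of the same build, for 10971 transcripts (36 had none). Library medians used log2(CPM + 0.5).

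The named mRNAs are Eif4e3, the 12 largest increases and 12 largest decreases among called mRNAs with a mean of at least 10 counts in the higher group and no overlap of libraries, of each list up to 2 members, those of smallest adjusted p, Th and the partners the study names, and the neighbours of Eif4e3 (up to 5 on each side). Where 5 or fewer mRNAs of a list were called, they are named as well. A few mRNAs that these rules pick are not reported here. The comparison and the lists were chosen with earlier results of these data known.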

Additional observations from a re-analysis of the deposited data

How the results depend on the processing

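The 216 calls with Torin1 became 342 by DESeq2's Wald test, 477 by edgeR's exact test and 6 with all 4 conditions in 1 fit (among them Eif4e3, Lrrc4c, Magea8, Rarg and Sall1), and ranged from 6 to 174 with a library left out. By voom, other filters and other scalings they stayed between 187 and 212. The 2 calls with vehicle became 0 without scaling, 4 without a filter and 21 by DESeq2, and ranged from 0 to 10 with a library left out. Calls in footprints ranged from 343 to 512 and in TE from 178 to 312 with a library left out, the TE count being 192 and 188 without the RNA-seq and the Ribo-seq library of KO replicate 1. The median of chromosome 16 was 0.118 without scaling and 0.087 to 0.121 with a library left out, and that of X was 0.106 with the GC and length trend removed and 0.105 with the block as well. None of these results, nor any called mRNA of the naming rule, changed direction. The cause of these changes was not tested.

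Replicates are separate passages, and the labels do not say whether ctrl and KO passages of 1 number were handled together. Deviations from the group means correlated at 0.28, 0.26 and 0.04 for same-numbered libraries with Torin1 (-0.32 to 0.08 for others). Thus ctrl replicate 3 was not closest to KO replicate 3. In RNA-seq with vehicle the same-numbered libraries correlated at 0.06, 0.68 and 0.34 (-0.53 to 0.39 for others). With the replicate number as a block, 1041 mRNAs were called with Torin1 (537 higher, 504 lower, the 216 included), 866 with vehicle, 0 for the interaction, 776 in footprints and 541 for TE. With the block and the GC and length trend removed, a choice added after the data were seen as was that of the trend alone, it was 1204 (463 higher, 741 lower).

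Removing the trend ended the calls of Lamp2, Mospd1, Pmvk, Uqcrc1, Lama4, Hprt and Erbin (adjusted p = 0.0524, 0.0523, 0.082, 0.0522, 0.0623, 0.067 and 0.0616). Named mRNAs near 0 and without a call changed sign. With the trend removed, without and with the block, the log2 fold change became -0.0468 and -0.0462 for Cdc5l, -0.0183 and -0.0214 for Eif4g3, -0.051 and -0.0506 for Ppp4r2 and -0.0131 and -0.0126 for Trnt1, and -0.001 without the block for Hif1an. Without scaling it was 0.0024 for Hspa8. With a library left out it ranged from -0.0018 to 0.1314 for Angel1, -0.1029 to 0.0466 for Cntn3, -0.0695 to 0.0968 for Eif4g3, -0.1377 to 0.2182 for H1f2, -0.0411 to 0.0654 for Hif1an, -0.1868 to 0.0729 for Hspa2, -0.0628 to 0.0253 for Hspa8 and -0.0371 to 0.05 for Ppp4r2. Footprint libraries held 1289467 to 2132682 counts.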

Other observations

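Other called mRNAs, which belong to no list and were chosen after their values were seen, included transcription factors, secreted factors and enzymes. The retinoic acid receptor gene Rarg was at 11.2, 13.7 and 13.1 CPM in ctrl and 7.42, 6.96 and 6.65 CPM in KO libraries, a log2 fold change of -0.85 (SE 0.12, adjusted p = 0.00594 by edgeR). Sall1, a zinc finger transcription factor gene, was at 2.21, 2.50 and 2.44 CPM in ctrl and 4.57, 4.98 and 4.94 CPM in KO libraries, a log2 fold change of 1.02 (SE 0.17, adjusted p = 0.0108). Both were called with all 4 conditions in 1 fit. Asl, an enzyme of the urea cycle and of arginine synthesis, fell from 186, 186 and 199 CPM to 146, 153 and 146 CPM (log2 fold change -0.36, SE 0.05, adjusted p = 0.00552), and its footprints fell by 0.63 (adjusted p = 8.2e-04).

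Of the genes for secreted factors, the lymphangiogenic growth factor gene Vegfc (1.01, adjusted p = 0.0124) and the macrophage growth factor gene Csf1 (0.68, adjusted p = 0.0289) were higher. The secretin gene Sct (-0.55, adjusted p = 0.00721), the growth hormone gene Gh (-0.60, adjusted p = 0.023) and Igfbp6, for a binding protein of insulin-like growth factors (-0.66, adjusted p = 0.0351), were lower. The adhesion gene Mcam was lower as well (-0.52, adjusted p = 0.00783), as was Lgals1 for galectin-1 (-0.32, adjusted p = 0.0105), whose TE was higher by 0.46 (adjusted p = 0.028).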
